A study of Caenorhabditis elegans with 6 samples.

Results

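Glutamate is packed into synaptic vesicles by a vesicular transporter, is sensed after release by ligand-gated channels and by metabotropic receptors that act through G proteins, and is cleared by sodium-dependent uptake transporters of the plasma membrane. In Caenorhabditis elegans the vesicular transporter EAT-4 marks the glutamatergic neurons, and the BAG neurons, a pair of head sensory neurons that respond to carbon dioxide and oxygen, are among them. The 10 genes described here are eat-4 for release, the metabotropic receptor genes mgl-1, mgl-2 and mgl-3, and the uptake transporter genes glt-1, glt-3, glt-4, glt-5, glt-6 and glt-7. They were taken by symbol, as the text before the first comma of each row's alias, and each matched 1 of the 47063 rows of the table.

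The levels come from RNA sequencing of 6 libraries of cells sorted by flow cytometry from embryonic cells kept in culture overnight, 2 libraries for each of 3 groups. All groups carry the transgene wzIs113[Pgcy-9::GFP], in which the promoter of the BAG gene gcy-9 drives green fluorescent protein. Non-BAG cells (non-fluorescent) and wild-type BAG neurons (fluorescent) are of strain FQ424, and mutant BAG neurons (fluorescent) are of strain FQ705, which also carries pmk-3(wz31), a mutation in a p38 MAP kinase gene. Per the labels, pmk-3 is not needed for the reporter, a small share of sorted cells was not fluorescent, the cells are pooled from many embryos, and the non-BAG group is a mixture of the other cell types of the culture. The series describes the libraries of a group as biological replicates but does not name the cultures they came from, so a p-value here reflects how far these libraries vary, possibly for technical reasons alone.

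The libraries held 6181113 to 8596169 reads. Values are the authors' normalized read counts, in which 1 read was worth 0.620 to 1.15 depending on the library, and group levels are mean ± SD (n = 2). Changes are log2 changes ± SE of log2(value + 1), the group named first minus the other, from limma with Benjamini-Hochberg adjustment over the 14211 genes that reached 10 or more in 2 or more libraries, and a gene was called at an adjusted p under 0.05. The targeted gene, pmk-3, was at 404 and 553 among non-BAG, 671 and 585 among wild-type BAG and 259.8 and 284 among mutant BAG libraries. Its change in the mutant against wild-type BAG neurons was -1.202 ± 0.28 (limma adjusted p = 0.0784). Over the 17 alternatives its adjusted p was 0.0184 to 0.520 and passed in 5, with 0.0329 and 0.0317 when non-BAG replicate 1 or 2 was left out. The sources used here do not give the lesion of wz31, so this level checks the labels only in part. All 13 BAG identity markers were called higher in wild-type BAG neurons than in non-BAG cells, with summed levels of 1498 to 2293 in non-BAG, 64003 to 66549 in wild-type BAG and 68820 to 82849 in mutant BAG libraries. They include gcy-9, whose promoter drives the sorting reporter, so its rise is no separate check of the sort. Of these sums gcy-9 held 32105 and 38516 in the wild-type BAG libraries. The markers ets-5 (7.58 and 8.68) and flp-17 (1.08 and 3.10) were under 10 in both non-BAG libraries. Both passed the filter only through the BAG libraries, so their direction follows from the filter and is no check of the sort. Of 16 pan-neuronal markers, 15 were called higher in wild-type BAG neurons. Of 12 body wall muscle markers, 10 were called lower and unc-54 was called higher. Of 8 pharynx markers tni-4 was called higher, and of 6 tested glial markers kcc-3 was called higher and ptr-10 lower.

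Of the 10 genes, 8 passed the filter on low values and were tested. The uptake genes glt-5 and glt-7 did not, and glt-3 passed only through the non-BAG libraries, where it is high. By the Ensembl 115 annotation, mgl-2 lies on chromosome I, glt-5 on II, eat-4 on III, mgl-3, glt-3, glt-6 and glt-7 on IV, and mgl-1, glt-1 and glt-4 on X, with 1626 to 3716 bases of exon per gene.

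**Figure D1:**
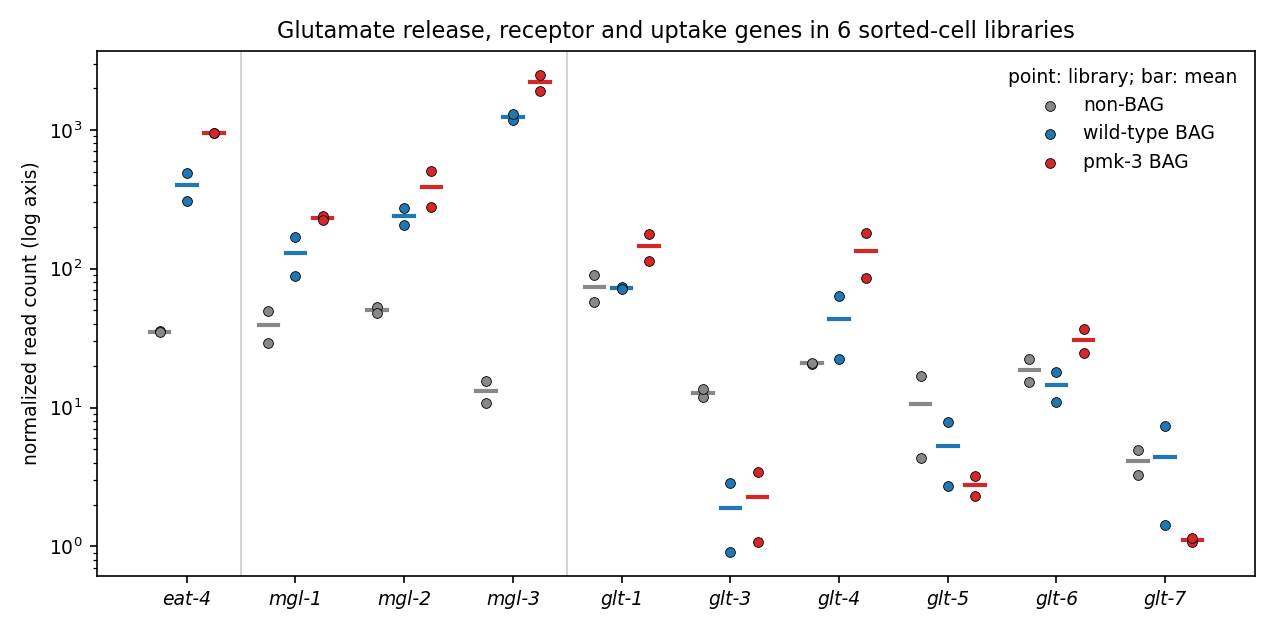
Normalized read count (log axis) of each of the 10 genes in each library; points are libraries, bars are the means of the 2 libraries of a group, and vertical lines separate release, receptor and uptake genes. The points of eat-4 and of the 3 mgl genes separate the 4 BAG libraries from the 2 non-BAG libraries, while those of most glt genes lie close together or near the bottom of the axis.

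The gene eat-4, which encodes the vesicular glutamate transporter, was low in non-BAG cells and higher in BAG neurons. Its level was 35.7 and 34.7 among non-BAG, 309.7 and 487 among wild-type BAG and 946 and 951 among mutant BAG libraries. The 3 groups did not overlap, and the wild-type BAG libraries lay farthest apart. The group levels were 35.2 ± 0.721, 398 ± 125 and 949 ± 3.21 (SD, n = 2). In wild-type BAG neurons against non-BAG cells the change was 3.43 ± 0.31 (limma adjusted p = 0.000112), the 314th largest rise of the genes tested, and the call held under all 17 alternatives, with values of 3.10 to 3.75. In these bulk samples, fewer cells that express a gene and less RNA of it per cell cannot be told apart. Set against protein-coding genes by level per kb of exon, eat-4 stood at the 51.5th percentile in non-BAG cells, the 84.7th in wild-type BAG neurons and the 92.7th in mutant BAG neurons.

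The exons of eat-4 share 79 bases with ZK512.2 on the other strand. The sources used here do not say whether reads were counted by strand, and reads from these bases are therefore uncertain. ZK512.2 stood at 145 to 255 in the 6 libraries, and even coverage of it would place 6.002 to 10.6 of its normalized counts per library in the shared bases. That is well under the level of eat-4 in BAG neurons and a larger part of its level in non-BAG cells.

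Levels of different genes are compared per kb of exon. Among 7 vesicular transporter genes in wild-type BAG neurons, eat-4 had the second highest mean level per kb, 179.6 ± 56.5, after vglu-2 at 276 ± 220 and before vnut-1 at 169 ± 12.6. The libraries of these 3 genes overlapped, so their order is not resolved. In mutant BAG neurons eat-4 stood at 428 ± 1.45 per kb, under vglu-2 at 584 ± 56.3 and above unc-17, the vesicular acetylcholine transporter gene, at 179 ± 23.4, with no overlap between the libraries of these genes. In non-BAG cells eat-4 was number 5, at 15.9 ± 0.325 per kb. The unc-17 locus shares exons with cha-1 on the same strand, and vnut-1 with cysl-2, so both levels are uncertain.

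All 3 mgl genes were called higher in wild-type BAG neurons than in non-BAG cells, and mgl-3 was the least abundant of them in non-BAG cells and the most abundant in BAG neurons. The gene mgl-3 was at 10.8 and 15.5 among non-BAG, 1170.3 and 1307 among wild-type BAG and 1889.7 and 2500.0 among mutant BAG libraries. The groups were far apart and did not overlap. The group levels were 13.2 ± 3.30, 1239 ± 96.7 and 2195 ± 432 (SD, n = 2), from 35, 3101 and 3927 reads. The change in wild-type BAG neurons against non-BAG cells was 6.47 ± 0.30 (limma adjusted p = 5.44e-06), the 11th largest rise among the 14211 genes tested, and 5.89 to 6.71 under the alternatives, all called.

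The gene mgl-2 encodes the receptor most like the mammalian metabotropic receptors that couple to Gq. It was at 53.1 and 48.4 among non-BAG, 206 and 275 among wild-type BAG and 501 and 279 among mutant BAG libraries. The BAG libraries lay above the non-BAG libraries, and the lower mutant library lay just above the higher wild-type BAG library. The change in wild-type BAG neurons against non-BAG cells was 2.21 ± 0.36 (limma adjusted p = 0.00326) and was called under all alternatives. On the same strand, mgl-2 shares 554 bases of exon with maf-1, whose mean level was 18.98% of that of mgl-2, so the split of reads between them is uncertain.

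The gene mgl-1 encodes a receptor most like the mammalian receptors that couple to Gi and Go, and in worms it is known from the response to starvation. It was at 29.2 and 49.6 among non-BAG, 169 and 88.3 among wild-type BAG and 238 and 225 among mutant BAG libraries. The wild-type BAG libraries differed most, and the groups still did not overlap. The change in wild-type BAG neurons against non-BAG cells was 1.66 ± 0.42 (limma adjusted p = 0.0275), and it was not called when the first library of the non-BAG, wild-type BAG or mutant BAG group, or the second of the mutant BAG group, was left out (adjusted p = 0.103, 0.183, 0.0705 and 0.0714), nor with only the groups compared or with no trend (0.0891 and 0.0795). Its exons share 62 bases with pssy-1 on the other strand, in which even coverage would place 8.25 to 13.8 counts per library, against the 29.2 and 49.6 of mgl-1 in non-BAG cells.

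The makeup of the receptor family differed between non-BAG cells and BAG neurons. As a share of the summed level per kb of the 3 genes, mgl-3 made up 11.97% and 13.8% among non-BAG, 76.1% and 79.1% among wild-type BAG and 72.6% and 83.5% among mutant BAG libraries. The shares of mgl-1 were 34.3% and 46.8%, then 11.7% and 5.67%, then 9.72% and 7.99%. The shares of mgl-2 were 53.7% and 39.4%, then 12.2% and 15.2%, then 17.6% and 8.54%. The wild-type and mutant BAG libraries overlapped in the shares of all 3 genes, and no test was made of the shares. The summed level per kb was 26.6 and 33.04 among non-BAG, 452 and 486 among wild-type BAG and 765 and 880.1 among mutant BAG libraries. Per kb, mgl-3 was 0.223 and 0.350 times the level of mgl-2 in the non-BAG libraries and 4.12 to 9.77 times in the 4 BAG libraries.

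**Figure D2:**
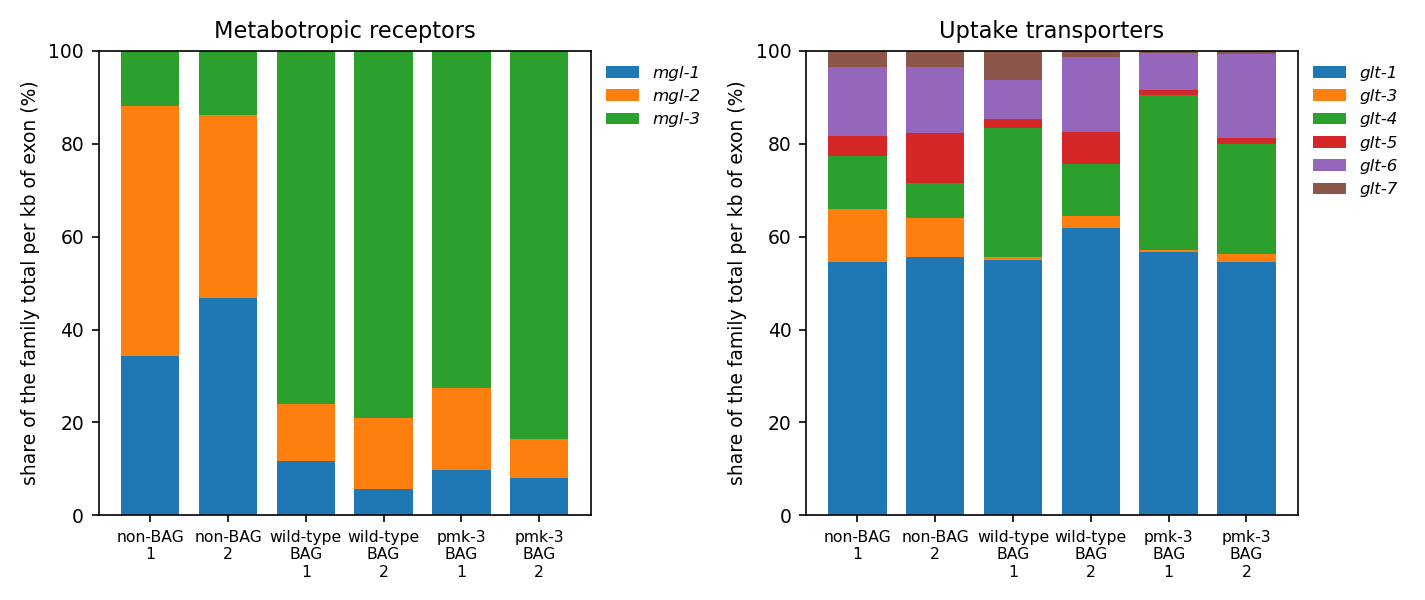
Share (%) of each gene in the summed level per kb of exon of its family, by library, for the metabotropic receptors (left) and the uptake transporters (right). The mgl-3 share is 11.97% and 13.8% in non-BAG cells and at least 72.6% in each BAG library, while glt-1 holds 54.6% to 61.9% of the uptake family in all 6 libraries.

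Set beside the other glutamate receptor genes per kb of exon, 19 in all, mgl-3 was the second most abundant in wild-type BAG neurons, at 364 ± 28.4. It stood under the chloride channel gene glc-2 at 588 ± 53.7 and above the chloride channel gene glc-4 at 224 ± 8.82, and the libraries of the 3 genes did not overlap. In the same group mgl-2 was number 9, at 64.7 ± 13.2 per kb, and overlapped glr-4 above it but not glr-6 below it. The gene mgl-1 was 11th, at 40.1 ± 17.8 per kb, and overlapped glr-2 below it. In mutant BAG neurons mgl-3 was first, at 645 ± 127 per kb, with both libraries above those of glc-2 at 418 ± 97.98 and glc-4 at 404 ± 86.5. In non-BAG cells mgl-3 was 17th, at 3.87 ± 0.970 per kb. The exons of glc-2 overlap F25F8.1 on the other strand, whose level was higher, so the level of glc-2 is uncertain.

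**Figure D3:**
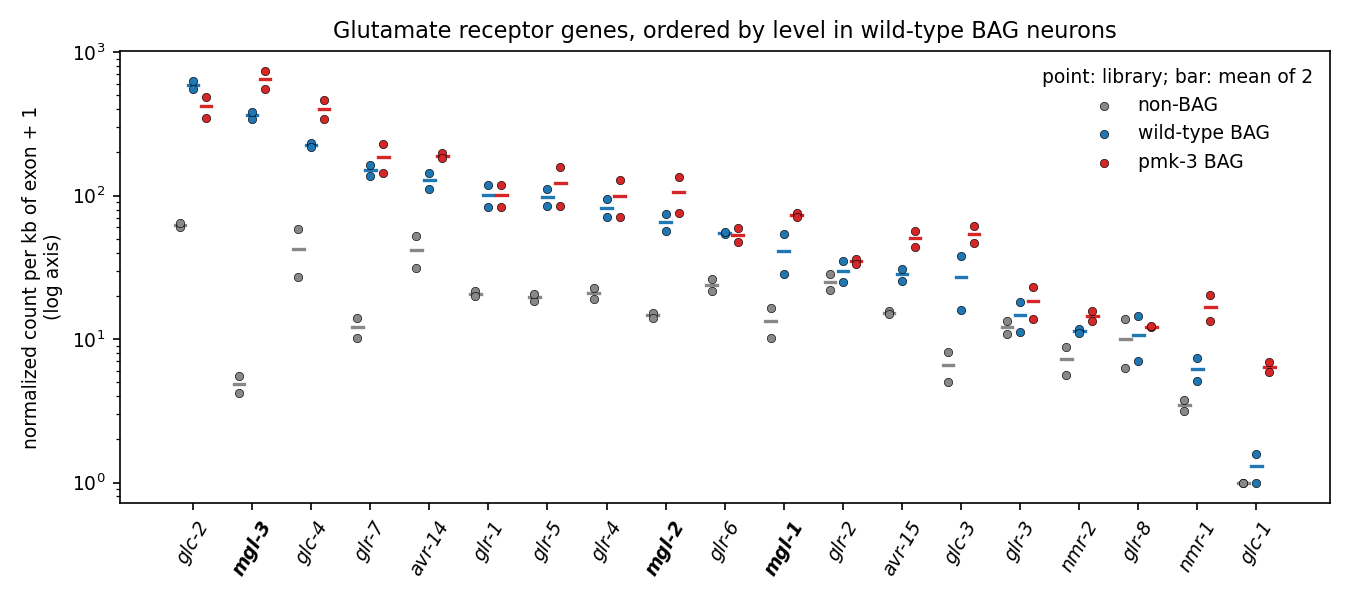
Level per kb of exon (plus 1, log axis) of 19 glutamate receptor genes in each library, ordered by their mean in wild-type BAG neurons; points are libraries, bars are the means of 2, and the metabotropic genes are in bold. In non-BAG cells mgl-3 lies at 3.87 per kb, and in BAG neurons it lies at 364 (wild type) and 645 (mutant), among the most abundant genes of the set.

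None of the 4 tested uptake genes was called in wild-type BAG neurons against non-BAG cells by the main limma test or by edgeR. DESeq2 called none of them and gave no adjusted p for glt-3, while limma without the trend called glt-3 lower. That gene passed the filter only through the non-BAG libraries, so its direction follows from the filter. The gene glt-1, whose product is known from muscle and hypodermis, was at 57.4 and 89.9 among non-BAG, 74.0 and 71.8 among wild-type BAG and 179 and 114 among mutant BAG libraries. The wild-type BAG libraries lay between the non-BAG libraries, and both mutant libraries lay above all others. The change in wild-type BAG neurons against non-BAG cells was 0.02 ± 0.39 (95% interval -0.85 to 0.89, limma adjusted p = 0.980), and its sign turned under TMM and quantile scaling, in edgeR and in DESeq2. Of the muscle markers 10 of 12 were called lower in the same comparison, and of 9 tested hypodermal markers che-14 was called lower and none higher. Their part in the level of glt-1 was not tested.

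The gene glt-4, whose product is known from head neurons and pharynx, was at 20.6 and 21.1 among non-BAG, 63.95 and 22.3 among wild-type BAG and 181 and 85.1 among mutant BAG libraries. The lower wild-type BAG library was close to the non-BAG libraries, and the mutant libraries were the highest. The change in wild-type BAG neurons against non-BAG cells was 0.83 ± 0.57 (95% interval -0.46 to 2.12, limma adjusted p = 0.389). It was 0.09 when wild-type BAG replicate 1 was left out and 1.57 when replicate 2 was, not called in either case.

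The genes glt-3, glt-6 and glt-7 are known from the excretory canal cell, and glt-5 from the pharynx. The gene glt-3 was at 11.9 and 13.6 among non-BAG, 0.914 and 2.87 among wild-type BAG and 1.08 and 3.45 among mutant BAG libraries, from 33, 5 and 4 reads in the groups. Both non-BAG libraries lay above all BAG libraries. The gene entered the test only because its non-BAG values reached the filter, so its direction against non-BAG cells follows from the filter and its value there, -2.34 ± 0.97 for wild-type BAG neurons, is a description with no test.

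The gene glt-6 was at 15.2 and 22.3 among non-BAG, 10.96 and 17.96 among wild-type BAG and 24.8 and 36.8 among mutant BAG libraries. The non-BAG and wild-type BAG libraries overlapped, and the change between them was -0.37 ± 0.56 (95% interval -1.63 to 0.89, limma adjusted p = 0.727). Its exons share 21 bases with the abundant vdac-1 on the other strand. Even coverage of vdac-1 would place 14.9 and 10.3 counts in them among non-BAG, 26.8 and 24.6 among wild-type BAG and 30.8 and 34.1 among mutant BAG libraries. In both wild-type BAG libraries and the first mutant BAG library this is more than the whole level of glt-6, and in the others less. The values of glt-6 are therefore uncertain in every library.

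The remaining uptake genes rested on few reads and were not tested. The gene glt-5 was at 4.33 and 16.7 among non-BAG, 2.74 and 7.90 among wild-type BAG and 3.23 and 2.30 among mutant BAG libraries, from 31, 14 and 5 reads. The gene glt-7 stood at 3.25 and 4.96, then 7.31 and 1.44, then 1.08 and 1.15, from 11, 10 and 2 reads. Apart from the mutant libraries, which lay below the others for glt-7 and below the non-BAG libraries for glt-5, the groups overlapped. Of 6 tested excretory canal markers, exc-9 was called lower in wild-type BAG neurons than in non-BAG cells and none was called higher. The summed level of all 7 excretory canal markers was 923 to 1519 in non-BAG, 842 to 889 in wild-type BAG and 1352 to 1559 in mutant BAG libraries.

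In the uptake family glt-1 held the largest share in every library. As a share of its summed level per kb, glt-1 made up 54.6% to 61.9% in the 6 libraries. The share of glt-3 was 11.2% and 8.35% in non-BAG cells and at most 2.45% in any BAG library. The summed level per kb was 56.5 and 87.1 among non-BAG, 72.5 and 62.4 among wild-type BAG and 169.9 and 112 among mutant BAG libraries. The mutant libraries were the highest, and the other groups overlapped.

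In wild-type BAG neurons against non-BAG cells as a whole, 4 of the 8 tested genes were called higher, the release gene and the 3 receptor genes, and 0 were called lower. Over all genes tested, 10.2% were called higher and 4.01% lower. The median change of the 8 was 1.24, against -0.04 over all genes tested. The libraries of the groups did not overlap for 5 genes that were higher, where 28.4% of all genes did so, and for glt-3, which was lower by the filter (25.2% of all genes).

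The second comparison, of mutant with wild-type BAG neurons, asks what the pmk-3 mutation changes within the same cell type. None of the 8 genes was called by limma, where 0.837% of all genes tested were called, 0.486% higher and 0.352% lower. At an unadjusted p under 0.05 there were 4 of the 8 (15.9% of all genes tested), namely eat-4, mgl-3, glt-1 and glt-4. By edgeR 0 were called and by DESeq2 1, eat-4. The largest values were 1.69 ± 0.57 for glt-4 (95% interval 0.40 to 2.98, limma adjusted p = 0.196) and 1.29 ± 0.31 for eat-4 (0.59 to 1.98, adjusted p = 0.0868). In limma eat-4 did pass when non-BAG replicate 1 or 2 was left out (adjusted p = 0.0458 and 0.0420) and with only the groups compared (0.0337), and DESeq2 gave 0.00896. Over the 17 alternatives the value was 0.96 to 1.61 and the adjusted p 0.00896 to 0.556.

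The values of the other genes were smaller, with wide intervals. For mgl-1 the value was 0.92 ± 0.42 (95% interval -0.02 to 1.86), for mgl-2 0.65 ± 0.36 (-0.16 to 1.46) and for mgl-3 0.81 ± 0.30 (0.14 to 1.48), with limma adjusted p of 0.324, 0.413 and 0.226. For glt-1 it was 0.96 ± 0.39 (0.09 to 1.83), for glt-6 1.05 ± 0.56 (-0.21 to 2.31) and for glt-3 0.16 ± 0.97 (-2.03 to 2.35), with limma adjusted p of 0.269, 0.397 and 0.956. All 8 values were positive, as were 51.1% of those of all genes tested, and their median was 0.94 against 0.02. For 7 of the 8, all but glt-3, both mutant libraries lay above both wild-type BAG libraries, where 26% of all genes did so, and 0 lay below, where 24.3% did so. These 7 include glt-6, whose values are uncertain through its overlap with vdac-1. The level of vdac-1 was 1306 and 1196 among wild-type BAG and 1499 and 1658 among mutant BAG libraries, and its part in the value of glt-6 was not tested.

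In the same comparison the median change of most marker lists was above 0, and that of muscle and glia markers was below 0. The summed pan-neuronal markers stood at 52713 to 57021 in wild-type BAG and at 78242 to 88476 in mutant BAG libraries, and their median change was 0.26, with 1 of 16, egl-21, called higher. The largest rise in counts was that of egl-3, at 7889 and 7104 among wild-type BAG and 21802 and 31346 among mutant BAG libraries. Both mutant libraries were also higher for egl-21, unc-104, snt-1, ric-4, unc-64, unc-10, unc-13 and rgef-1. Both were lower for snb-1, unc-18 and unc-31, and the other genes overlapped. The median change of the BAG identity markers was 0.46, with 2 of 13, the neuropeptide genes flp-10 and flp-19, called higher. The summed markers of other glutamatergic sensory neurons stood at 388 to 574 in wild-type BAG and 668 to 848 in mutant BAG libraries, with 0 of 11 tested called and a median change of 0.51. On that list gcy-8, gcy-23, osm-10, mec-3, mec-4 and mec-18 were higher in both mutant than in both wild-type BAG libraries, as were 26% of all genes tested. The libraries overlapped for mec-17, che-1, gcy-5, gcy-7, gcy-18, ceh-36 and sra-6. The gene str-2, at 1.08 and 1.24 in non-BAG cells, was at 0 in all 4 BAG libraries. The summed pharynx markers stood at 2558 to 5793 in wild-type BAG and 5783 to 5908 in mutant BAG libraries, with a median change of 0.62, and the median change of the 6 tested excretory canal markers was 1.21. It was 0.63 for the 9 tested hypodermal markers. The sum of all 10 hypodermal markers was 1069 to 2546 in wild-type BAG and 1788 to 1809.9 in mutant BAG libraries. The median was -0.05 for body wall muscle and -0.11 for glial markers. Their part in the values of eat-4, the mgl genes and the glt genes was not tested.

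The third comparison, of mutant BAG neurons with non-BAG cells, differs in both cell type and genotype and shares libraries with the other comparisons. The release gene, the 3 receptor genes and glt-4 were called higher, 5 of the 8, where 16.2% of all genes tested were called higher and 9.34% lower. The change was 4.71 ± 0.31 for eat-4 (limma adjusted p = 1.02e-05), 7.28 ± 0.30 for mgl-3 (2.58e-06), 2.86 ± 0.36 for mgl-2 (0.000464) and 2.57 ± 0.42 for mgl-1 (0.00205), and these 4 were called under all 17 alternatives. For glt-4 it was 2.52 ± 0.57 (limma adjusted p = 0.0113), and without mutant BAG replicate 1 it was 1.98 and not called (0.122). The markers gcy-8, gcy-23 and osm-10 of other glutamatergic sensory neurons were called higher in this comparison too, 3 of 11 tested, and tni-4 of 8 pharynx markers. Their part in the value of glt-4 was not tested. The libraries of the groups did not overlap for 7 of the 8 genes, which were higher (32.1% of all genes), and for glt-3, which was lower by the filter (34% of all genes). Of the 7, glt-6 is uncertain through its overlap with vdac-1. For glt-1 and glt-6 the values were 0.98 ± 0.39 and 0.69 ± 0.56 (limma adjusted p = 0.0930 and 0.399), and for glt-3 the value was -2.18 ± 0.97, given with no test.

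**Figure D4:**
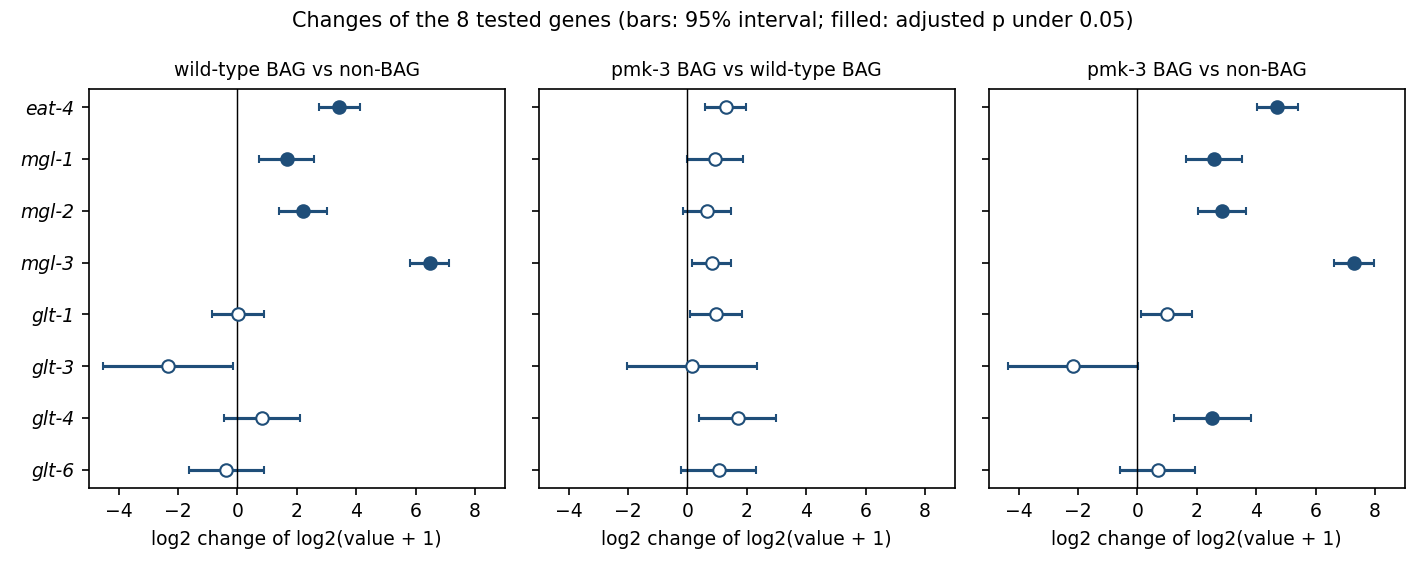
Log2 change of the 8 tested genes in the 3 comparisons; points are limma estimates on log2(value + 1), bars are 95% intervals, and filled points have an adjusted p under 0.05. Points of eat-4 and the mgl genes are filled in the left and right panels, glt-4 is filled only in the right panel, and no point is filled in the middle panel, where the values run from 0.16 to 1.69.

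The rest of the glutamate pathway was followed in 6 lists, of which 57 genes were tested. In wild-type BAG neurons against non-BAG cells 20 were called higher and 1 lower, beside 10.2% and 4.01% of all genes tested. The 1 called lower, mec-3, passed the filter mainly through the non-BAG libraries, where it is high, and reached 10 in no wild-type BAG library. Of 14 ionotropic receptor and auxiliary subunit genes 6 were called higher and 0 lower, with the largest changes for the non-NMDA receptor subunit gene glr-7 (3.72 ± 0.34), the stargazin-like auxiliary gene stg-2 (2.68 ± 0.67), and the non-NMDA subunit genes glr-5 (2.36 ± 0.37) and glr-1 (2.30 ± 0.33), with limma adjusted p of 0.000126 to 0.0264. Of 5 tested genes of glutamate-gated chloride channels, which are specific to invertebrates, glc-2 (3.24), glc-4 (2.51), glc-3 (2.03) and avr-14 (1.66) were called higher (limma adjusted p = 9.0e-05 to 0.0372). Of these, stg-2, glc-3 and avr-14 were not called in every fit that left out a library, and without wild-type BAG replicate 2 only 2 of the channel genes were called.

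Among genes that act downstream of metabotropic receptors, 6 of 13 G protein effectors and regulators were called higher and 0 lower in wild-type BAG neurons, and 12 without non-BAG replicate 1. The largest changes were those of the receptor kinase gene grk-2 (3.41 ± 0.24), the phospholipase C-beta gene egl-8 (2.41 ± 0.24), the RGS gene egl-10 (1.98 ± 0.32), whose exons overlap F28C1.1 on the other strand, and grk-1 (1.73 ± 0.31), with limma adjusted p of 3.1e-05 to 0.00545. Of 12 tested genes of glutamate and glutamine metabolism, the glutaminase gene glna-3 (1.80 ± 0.31) and the aspartate aminotransferase gene got-1.2 (1.19 ± 0.31) were called higher (limma adjusted p = 0.00455 and 0.0307). Of the 6 other vesicular transporter genes, unc-17 (2.94 ± 0.38) and the monoamine transporter gene cat-1 (1.57 ± 0.39) were called higher (limma adjusted p = 0.000777 and 0.0261). Of 7 tested transcription factor genes of other eat-4 neurons, the touch neuron gene mec-3 was called lower, at -2.08 ± 0.59. It was at 32.5 and 34.1 among non-BAG, 6.40 and 7.90 among wild-type BAG and 9.70 and 11.5 among mutant BAG libraries. It reached 10 in both non-BAG libraries and in the second mutant BAG library, but in no wild-type BAG library. It still entered the fit without non-BAG replicate 1 (-2.11) or 2 (-2.05). The filter rested mainly on the group where mec-3 is high, so its value is a description with no test. Of these genes got-1.2, cat-1 and mec-3 were each not called in at least 5 of the 6 fits that left out a library, while glna-3 and unc-17 were called in all 6.

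In mutant against wild-type BAG neurons 0 of the 57 were called by limma, 9 were at an unadjusted p under 0.05, about the share of all genes tested (15.9%), edgeR called 0, and DESeq2 called 3 higher and 1 lower. Without non-BAG replicate 1 or without non-BAG replicate 2, limma called 2 higher and 1 lower. The smallest limma adjusted p were those of glna-3 (value 1.47 ± 0.31, adjusted p = 0.0682) and of vnut-1, a vesicular nucleotide transporter gene (value -1.80 ± 0.41, adjusted p = 0.0764), chosen after their values were seen. The median changes of the lists were 0.27 for ionotropic receptors, 0.83 for chloride channels, 0.43 for metabolism, 0.73 for vesicular transporters, 0.39 for G protein genes and 0.62 for the transcription factors.

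In mutant BAG neurons against non-BAG cells 31 of the 57 were called higher and 1 lower, beside 16.2% and 9.34% of all genes tested, and 17 and 20 in all without mutant BAG replicate 1 and mutant BAG replicate 2. All 5 tested chloride channel genes, 8 of 14 ionotropic receptor genes and 11 of 13 G protein genes were called higher. Of the last, 7 were called without non-BAG replicate 2 and 6 without either mutant library, and of the ionotropic receptor genes 5 were called without either mutant library. The largest of these changes were 4.001 ± 0.34 for glr-7, 3.69 ± 0.24 for grk-2 and 3.35 ± 0.38 for glc-4 (limma adjusted p = 4.7e-05, 1.0e-05 and 0.000264). Of the 8 ionotropic receptor genes, the NMDA receptor subunit gene nmr-1 was under 10 in both non-BAG libraries. It passed the filter only through the BAG libraries, so its direction against non-BAG cells follows from the filter. Its call, which is counted in the 8 and in the 31, is therefore a description with no test. Of the vesicular transporter genes 4 of 6 were called higher, led by unc-17 at 4.37 ± 0.38 (limma adjusted p = 5.0e-05), and 1 was called without mutant BAG replicate 1. Of 12 tested metabolism genes glna-3 (3.27 ± 0.31) and got-1.2 (1.49 ± 0.31) were called higher, in 17 and 15 of the 17 alternatives. The 1 gene called lower was got-1.3 (-3.08 ± 0.95), in 9 of 16 alternatives. Its level was 35.7 ± 9.13 in non-BAG, 9.66 ± 9.60 in wild-type BAG and 4.35 ± 4.52 in mutant BAG libraries (SD, n = 2). It reached 10 in both non-BAG libraries and in a wild-type BAG library, but in no mutant BAG library. It still entered the fit without non-BAG replicate 1 (-3.33) or 2 (-2.82). The filter rested mainly on the group where got-1.3 is high, so its value is a description with no test. The transcription factor gene unc-42 was called higher (1.26 ± 0.34), but not without non-BAG replicate 2 or either mutant library.

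The genes most like each tested gene in pattern over the 6 libraries were found among 4384 named genes with a mean of at least 50, by the root mean square difference of log2(value + 1) after each gene's own mean was taken off. This measure is a description of 6 libraries that share groups and depth. The genes were picked by it, so a pattern that they share with the tested gene follows from the choice. The nearest to mgl-3 were the diacylglycerol kinase gene dgk-3 (0.226), the neuropeptide receptor gene npr-7 (0.259) and the BAG guanylyl cyclase gene gcy-9 (0.299), whose promoter drives the sorting reporter. In those 3 genes, as in mgl-3, all 4 BAG libraries lay far above both non-BAG libraries. The nearest to eat-4 were pghm-1 (0.171), an enzyme gene of neuropeptide amidation, gnrr-4 (0.179), and the protein kinase C gene pkc-2 (0.217), all of which were higher in both mutant libraries than in both wild-type BAG libraries.

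The nearest genes to mgl-1 were the dopamine receptor gene dop-2 (0.166), arl-6 (0.196) and ceh-62 (0.231). Those to mgl-2 were the sodium leak channel gene unc-77 (0.215), unc-80 (0.259) and tfbm-1 (0.261). The nearest to glt-4 were the neuropeptide gene flp-27 (0.188), the neuropeptide receptor gene npr-12 (0.218) and the tyramine receptor gene ser-2 (0.220). In these 3, as in glt-4, the first wild-type BAG library was higher than the second. The nearest to glt-1 were cyn-17 (0.135), nkb-3 (0.146) and ceh-18 (0.183), and to glt-6 ptr-1 (0.113), acs-10 (0.132) and clec-12 (0.160). The nearest to glt-3 were farther off, tmd-2 (0.295), brd-1 (0.368) and zip-8 (0.394). The exons of dgk-3 overlap ina-1 and those of ptr-1 overlap spas-1, both on the other strand and more abundant, so their patterns are uncertain.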

How the data were processed

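The authors deposited their normalized counts, handled here as a signal, in 1 table with a column for each library; 0 value columns went unused. STAR, HTSeq and DESeq2 are the tools in the submitters' processing notes. Their versions, the genome build and the use of strand are not stated there. All deposited values (100%) were whole numbers of reads within 0.01 of a read once divided by the value of 1 read, so reads were recovered for count tests. Ribosomal RNA genes held 10.4% to 15.0% of reads. The spread between replicates exceeded sampling noise (chi-square per degree of freedom 39.4 for non-BAG, 27.3 for wild-type BAG and 9.45 for mutant BAG).

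The main test was limma 3.58.1 (R 4.3.3) on log2(value + 1), with a mean-variance trend, the 3 groups together (3 residual degrees of freedom), two-sided. With 2 libraries against 2 an exact permutation test cannot go below p = 0.333, so none is given. Levels per kb divide by exon length in Ensembl 115, found for 46407 of 47063 rows. There were 17 alternatives: other pseudocounts (0.5, 8), all expressed genes, only genes averaging 50 or more, TMM or quantile scaling, a replicate block, limma without the trend, a fit to only the groups compared, edgeR 4.0.16 or DESeq2 1.42.0 on the reads, and each library left out in turn, with a library left alone in its group taken to vary as much as the other groups do.

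The genes and lists were chosen with earlier results of these data known. Named list genes are those called in a comparison, at most the 4 with the largest changes per list; some of these are given only as counts. Other list genes, such as vglu-2, vnut-1 and glc-1, are named for their level per kb or were chosen after their values were seen. Marker genes are named where 5 or fewer of a list were called, and otherwise chosen after their values were seen.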

Additional observations from a re-analysis of the deposited data

How the results depend on the processing

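Of the genes' results, the count called in mutant against wild-type BAG neurons moved from 0 to 1 (eat-4) with the replicate block, with only the groups compared and in DESeq2, and was 0 to 1 when a library was left out. The counts in the other comparisons stayed within 3 to 4 and 4 to 6. Without the trend the counts in those comparisons included glt-3, lower by the filter. The replicate numbers share only a number, since the labels do not say that they mark a shared culture or day. Deviations of same-numbered libraries correlated at 0.460 (non-BAG and wild-type BAG), 0.00403 (non-BAG and mutant) and 0.0458 (wild-type BAG and mutant) over 14211 genes, and with the block eat-4 had a limma adjusted p of 0.0301 in mutant against wild-type BAG neurons. The change of glt-1 in wild-type BAG neurons against non-BAG cells turned sign to -0.00607 (TMM scaling), -0.0561 (quantile scaling), -0.0553 (edgeR) and -0.0436 (DESeq2), and ran from -0.30 to 0.34 when a library was left out. That of glt-3 in mutant against wild-type BAG neurons ran from -0.39 to 0.71. The cause was not tested. Over the single-gene results of all settings, 949 kept direction and side of the threshold, 67 lost a call, 12 gained one and 8 turned sign.

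Over all genes tested, calls in mutant against wild-type BAG neurons were 69 higher and 50 lower. They were 148 and 73 with a pseudocount of 8, 94 and 43 with TMM scaling, 118 and 42 in edgeR, 342 and 343 with the block, 341 and 258 with only the groups compared, 377 and 312 in DESeq2, 0 and 1 with no trend, and 0 and 0 without wild-type BAG replicate 2 or mutant BAG replicate 1 to 277 and 243 without non-BAG replicate 2. Against non-BAG cells, wild-type BAG calls of 1444 and 570 became 862 and 349 without wild-type BAG replicate 1, and mutant calls of 2300 and 1328 became 1185 and 499, and 1069 and 307, without mutant BAG replicates 1 and 2. The median change of all genes moved by over 0.1 log2 only to 0.13 with TMM scaling in mutant against wild-type BAG neurons, and to -0.23 with quantile scaling in mutant BAG neurons against non-BAG cells. The values rest on few reads for glt-3, glt-5 and glt-7.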

Other observations

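The chloride channel gene glc-1, under the filter on low values and not tested, stood at 0 per kb in both non-BAG libraries, 0.590 and 0 among wild-type BAG and 4.87 and 5.94 among mutant BAG libraries. Among markers of other glutamatergic sensory neurons, the guanylyl cyclase gene gcy-8 of the thermosensory AFD neurons was at 16.2 and 25.4 among non-BAG, 63.95 and 20.8 among wild-type BAG and 115.3 and 86.2 among mutant BAG libraries. The first wild-type BAG library was higher than the second for gcy-8, mec-18, gcy-5, gcy-18, gcy-23, ceh-36, sra-6 and osm-10, as for glt-4. It was lower for mec-3, mec-4, mec-17, che-1 and gcy-7 of the same list. No tie of these markers to glt-4 was tested. The myosin gene unc-54 was at 7237 and 6443 among non-BAG, 36218 and 33253 among wild-type BAG and 41712 and 46587 among mutant BAG libraries, while the other called markers of body wall muscle were lower in BAG neurons. The sources used here do not give the reporter's full sequence, and whether reads of the transgene were counted for unc-54 was not tested.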
